A study of Sus scrofa with 45 samples.

Results

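Whole blood of male miniature pigs (Sus scrofa) fed fat, cholesterol and sucrose for 19 weeks (HFCSD) is set here against whole blood of pigs fed fat and cholesterol alone for the same time (HFCD). The members are the arrays whose titles give whole blood, 1 of these diets and 19 weeks. They are 7 of the 45 arrays of the series, 3 of HFCSD and 4 of HFCD, and all were scanned on 1 day. By the study's methods both diets held 15% lard and 2% cholesterol, HFCSD also held 37% sucrose, each diet had 5 pigs of the Clawn breed, and feeding began when the pigs were 12 weeks old. The comparison asks what sucrose adds to a diet already rich in fat and cholesterol.

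Sucrose is split in the gut into glucose and fructose. Fructose goes mostly to the liver, where it enters glycolysis past the step that phosphofructokinase controls and feeds the making of fatty acids, while cholesterol in any cell is sensed by the SREBP and LXR factors that govern its synthesis, uptake and export. Whole blood holds few cells that burn or store fructose, and its RNA reports such a diet through the cells that circulate: young red cells, platelets, granulocytes, lymphocytes and monocytes.

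Blood was kept in PAXgene tubes, which fix the RNA of all blood cells together, so each value is a mean over every cell type, and fewer cells of a type and less RNA per cell cannot be told apart. Each array was read in 1 colour, and values are given as log2 of the deposited spot intensity after quantile normalization over the 45 arrays, in the order of the replicate numbers. The number of arrays limits the precision of every value below, and p-values measure the spread between samples.

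Whole blood was what the markers showed. HBE1, a globin of red cells, PF4, a chemokine stored in platelets, GNLY, a granule protein of cytotoxic lymphocytes, and LYZ, the lysozyme of monocytes and granulocytes, were all well above background on the 7 arrays. Their means were 13.72, 11.60, 14.88 and 12.65 under HFCD. ALB, the albumin gene that marks liver, and ADIPOQ, the adiponectin gene that marks fat cells, were not above background on any of the 7 arrays. Other members of the liver and fat lists were, such as ITIH2 and RETN (means of 9.32 and 8.47 under HFCD). For ITIH2 this holds for its brightest probe, and its other probes were not above background on any of the 7 arrays.

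The share of probe spots well above background was 43.5%, 40.1%, 39.6% and 37.6% on the HFCD arrays and 42%, 48.4% and 38% on the HFCSD arrays. The groups overlapped, and HFCSD replicate 2 was the highest. The means differed by 2.61 percentage points (exact permutation test, two-sided p = 0.429, 35 assignments, smallest possible p 0.0286). Without HFCSD replicate 2 the difference was -0.17.

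HFCD replicate 1 stood apart from its group. Its mean correlation over the 16277 probes tested was 0.854 with the other HFCD arrays and 0.934 with the HFCSD arrays. The other HFCD arrays correlated with each other at 0.974, 0.955 and 0.957, and their means with the HFCSD arrays were 0.941, 0.952 and 0.929. These coefficients are across probes, which are not independent replicates. Whether its label is right was not tested, and this doubt holds for every result with and without it. List medians and the results that rest on this array are given with and without it, a choice made after its values were seen. Without it the median over all 16793 probes tested was 0.16. The 7 arrays lay on 4 slides, of which 3 held 1 array of each diet, and all HFCD arrays were at place 3 and all HFCSD arrays at place 2 of their slide, so place and diet cannot be told apart.

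No probe passed the test between the diets at 19 weeks. Among the named genes with an unadjusted p under 0.05 on the higher side were MGP, which inhibits calcification, and PLA2G7 and ALOX15, which act on lipids. These genes were picked for arrays that do not overlap, so their p-values are no separate evidence. Of 16277 probes tested with limma, 0 (0%) passed a Benjamini-Hochberg adjusted threshold of 0.05 and the smallest adjusted p was 0.589. At an unadjusted p under 0.05 there were 218 probes (1.34%), 171 higher and 47 lower under HFCSD. This share is below what a threshold of 0.05 lets through when no probe differs. The methods' t-test with the same adjustment also gave 0, with 386 probes at an unadjusted p under 0.05. The median difference over all probes tested was 0.09, and 62.7% of them were above 0. With the slide as a block, added after seeing the data, 0 probes passed and 295 (1.81%) had an unadjusted p under 0.05.

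All 3 HFCSD arrays lay beyond all 4 HFCD arrays for 507 of 16272 probes (3.12%), above them for 418 (2.57%) and below them for 89 (0.547%). Such a split in 1 direction is 1 of the 35 possible assignments of the arrays, a share of 0.0286. Neither direction exceeded it, so lack of overlap alone does not set a gene apart. The genes that follow were named because their arrays did so, and the adjusted p of each in limma was 1.00. Their unadjusted p-values and SEs come from the values that picked them and are no separate evidence.

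MGP encodes matrix Gla protein, an inhibitor of calcification made in cartilage and the vessel wall. It was at 6.22, 6.64, 6.67 and 6.71 under HFCD and at 7.65, 6.96 and 8.05 under HFCSD. HFCD replicates 2 to 4 lay close together, HFCD replicate 1 was below them, and every HFCSD array was above them. The difference was 0.99 (limma SE 0.31, unadjusted p = 0.0128). It was positive on each slide that held both diets (1.83, 0.98 and 0.25), as the lack of overlap requires. Of all probes 13.4% were higher under HFCSD on each of these slides. The 4 control arrays of 19 weeks, of which 3 were scanned on another day, were at 8.14, 7.82, 8.45 and 9.45, above every HFCD array. At other feeding times the diets overlapped, with differences of 0.78 at 10 weeks, 0.12 at 27 weeks and 0.20 in white blood cells of 27 weeks. MGP is also among the genes that the study picked from these arrays.

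A pair of genes act on lipid mediators. PLA2G7, the lipoprotein-associated phospholipase that cuts oxidized phospholipids, was at 5.87, 6.23, 5.51 and 5.38 under HFCD and at 6.67, 6.35 and 6.45 under HFCSD. The nearest arrays of the groups, HFCD replicate 2 and HFCSD replicate 2, were a small step apart. Its difference was 0.74 (SE 0.28), and both tested probes of the gene were positive. ALOX15, a lipoxygenase that oxidizes arachidonic and linoleic acid, was at 11.66, 11.25, 11.45 and 11.46 under HFCD and at 11.75, 12.56 and 12.06 under HFCSD. It was bright on every array, and HFCSD replicate 2 was the highest (difference 0.67, SE 0.27).

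UCP3, a mitochondrial carrier that PPAR factors induce when fatty acids are burned, was at 4.94, 4.03, 4.65 and 4.15 under HFCD and at 5.28, 5.37 and 4.99 under HFCSD. Its lowest HFCSD array was just above HFCD replicate 1, and it was above background on 2 of the 4 HFCD arrays. It was thus tested through the HFCSD arrays alone, where it is high, so its difference and SE are no separate evidence. The difference was 0.77 (SE 0.29) at 19 weeks and -1.74 at 27 weeks (adjusted p = 0.573 for the difference between these feeding times).

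Genes of signalling were also among those without overlap. EDN3, a precursor of the vasoactive endothelin peptides, was at 7.42, 7.78, 7.38 and 7.79 under HFCD and at 8.13, 8.40 and 7.84 under HFCSD. MAPK9, a stress-activated kinase of the JNK family, was at 6.24, 6.39, 6.52 and 6.19 under HFCD and at 7.07, 6.54 and 6.84 under HFCSD. For both genes the highest HFCD array was close to the lowest HFCSD array, with differences of 0.53 for EDN3 and 0.48 for MAPK9. MEF2C, a transcription factor of muscle, B cells and the myeloid line, had 5 tested probes, all with positive differences from 0.56 to 0.92. The arrays of the diets did not overlap for 1 of them, while for its brightest probe HFCD replicate 1, at 8.15, lay among the HFCSD arrays.

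OXSR1, a kinase that responds to oxidative and osmotic stress, was at 8.45, 9.06, 8.88 and 9.22 under HFCD and at 8.39, 8.37 and 8.38 under HFCSD. The HFCSD arrays were almost equal and HFCD replicate 1 was next to them, so the gap to the other HFCD arrays was larger (difference -0.52 with 7 arrays and -0.67 without that replicate). RPL22, a protein of the large ribosomal subunit, had probes that disagreed. Its brightest probe differed by 0.39 with overlapping arrays (0.70 without HFCD replicate 1), and a dim probe of the same gene differed by -1.61 with no overlap.

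**Figure D1:**
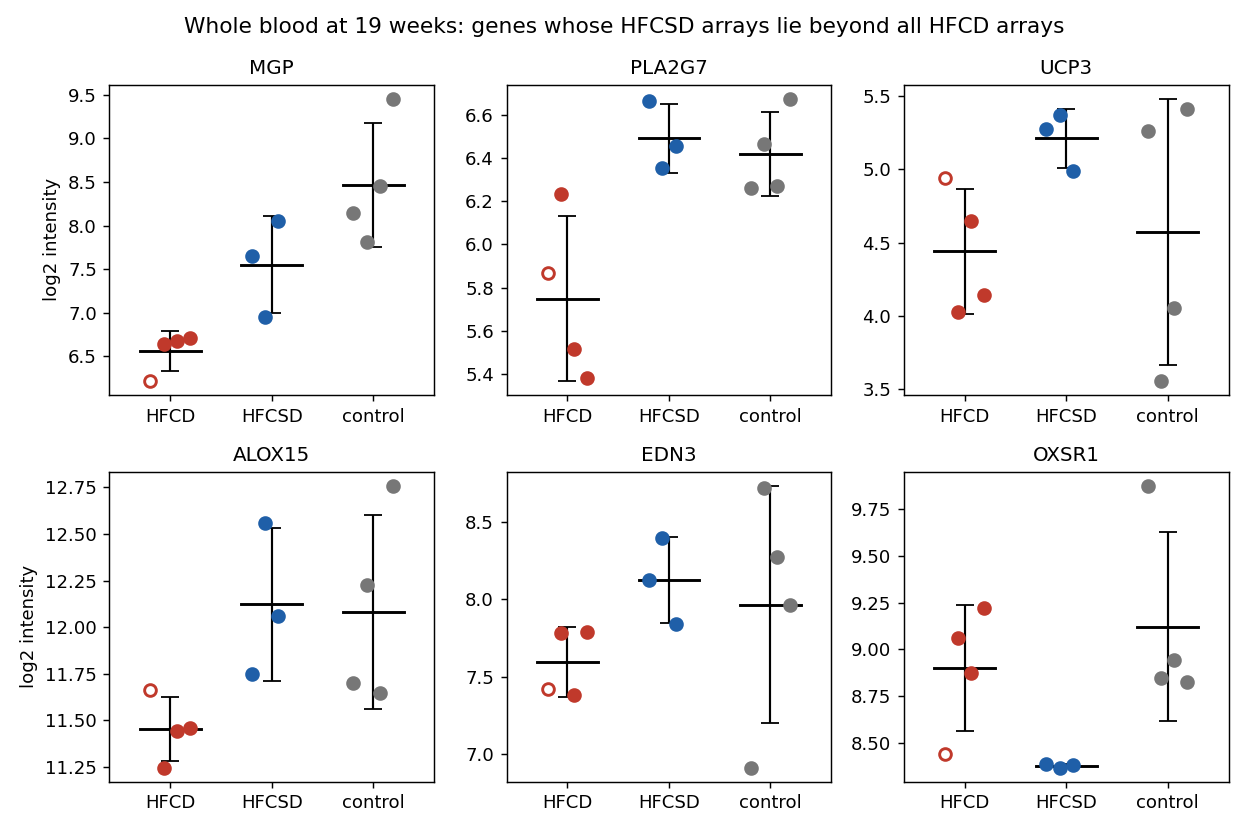
Log2 intensity of 6 genes on each whole blood array at 19 weeks, by diet. Points are arrays, the open point is HFCD replicate 1, and lines and bars are the mean and 1 SD. For MGP the HFCSD arrays (6.96 to 8.05) lie between the HFCD arrays and most control arrays, and for OXSR1 the 3 HFCSD arrays are almost equal.

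A pair of probes had differences of the same sign at each feeding time, though part of their values were at background. Other genes named here, such as MGP, MX1 and TRAF6, also had the same sign at each feeding time. F2R encodes the thrombin receptor PAR1, found on platelets and vessel cells in humans. At 19 weeks it was at 1.70, 5.87, 4.07 and 2.84 under HFCD and at 6.41, 6.72 and 5.88 under HFCSD. All HFCSD arrays were above background, 1 of the 4 HFCD arrays was, and HFCD replicate 2 nearly touched the HFCSD group. The probe was thus tested through the HFCSD arrays alone, where it is high, so its p-value is no separate evidence. The difference was 2.72 (limma SE 0.87, unadjusted p = 0.0144, adjusted p = 1.00). It was positive on each slide with both diets (4.18, 2.33 and 3.89), as the lack of overlap requires. With 3 of the 4 HFCD values at background its size is imprecise, and with normexp, which lifts dim values, it was 0.86. At 10 weeks F2R was at 2.85, 5.88, 1.77 and 2.67 under HFCD and at 5.97, 7.18, 7.25 and 6.09 under HFCSD. At 27 weeks it was at 6.85, 2.99 and 2.24 under HFCD and at 6.52, 7.90 and 6.64 under HFCSD. In each of these groups of HFCD arrays 1 array was near the HFCSD level and the others were far below it. The differences were 3.33 at 10 weeks, 3.00 at 27 weeks and 2.93 in white blood cells at 27 weeks, and none passed adjustment in limma. The control arrays of 19 weeks also fell into a high and a low set, at 3.43 for replicate 1 and at 5.86, 6.10 and 6.14 for the others.

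The probe with the smallest p at 19 weeks, singled out after its values were seen, has no pig gene name in the array annotation. It was at 6.89, 7.10, 8.38 and 7.70 under HFCD and at 4.64, 4.29 and 4.08 under HFCSD. Its signal cleared background on all HFCD arrays but on only 2 of 3 under HFCSD, and the groups did not overlap (difference -3.18, limma SE 0.39, adjusted p = 0.589 with 7 arrays and 0.0368 without HFCD replicate 1). The probe was chosen for its p and was tested through the HFCD arrays alone, so these values are no separate evidence. At 10 weeks the HFCSD arrays were at 3.17, 3.87, 8.29 and 3.02 and the HFCD arrays at 7.86, 7.30, 8.60 and 7.61. Replicate 3 of HFCSD was at the HFCD level there, and so was replicate 2 of HFCSD at 27 weeks, at 8.28. The differences were -3.25 at 10 weeks, -3.18 at 27 weeks and -2.20 in white blood cells. Control replicate 3 of 19 weeks, at 4.24, was at the HFCSD level, and the other control arrays were at 7.04, 8.08 and 8.06. Control replicate 3 was also the lowest control array at 10 weeks (3.07), at 27 weeks (4.95) and in white blood cells (4.19). Under HFCSD the replicate number did not hold, with replicate 3 at 8.29 at 10 weeks and at 4.08 at 19 weeks. With 5 pigs per diet, arrays of different feeding times share pigs, so levels at different times are not independent. The labels do not tie these arrays to 1 pig, so whether the same animals carry these levels was not tested. Whether the pigs differ in sequence where these probes bind, which would alter the signal without a change in expression, was not tested either.

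**Figure D2:**
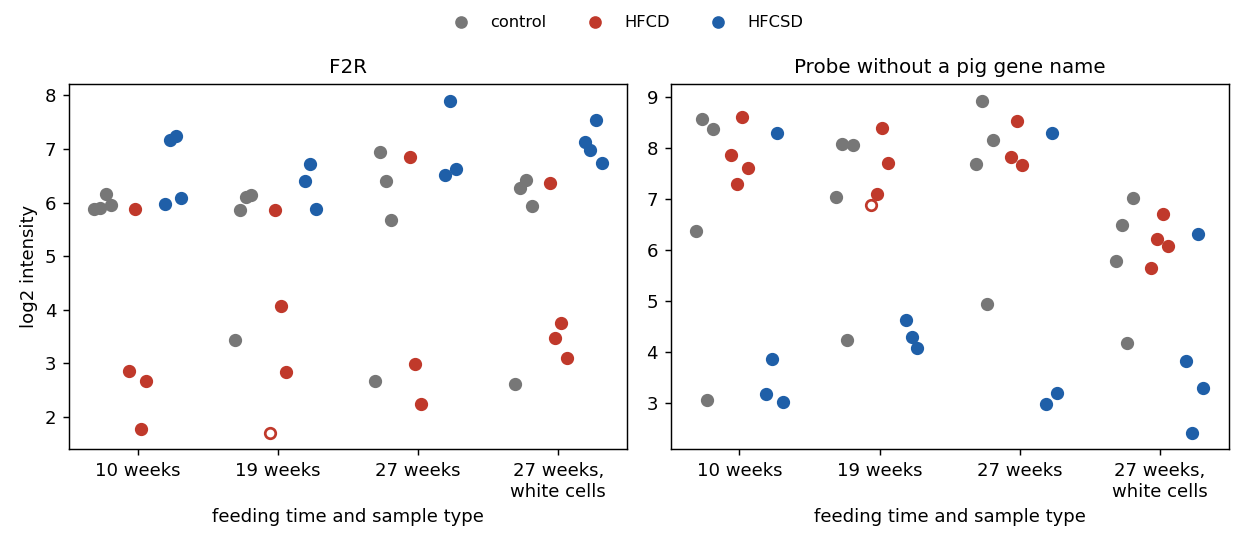
Log2 intensity of F2R and of the probe without a pig gene name on every array, by diet, feeding time and sample type. Points are arrays and the open point is HFCD replicate 1 at 19 weeks. Both probes have a high and a low set of arrays, and the diets differ in how many arrays fall in each.

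Genes of sterol handling lay on both sides of 0. Of the sterol synthesis list 4 genes were tested, 2 above and 2 below 0, with a median of 0.14 (all probes 0.09). The median was -0.03 with the slide as a block and 0.02 with normexp. Without HFCD replicate 1, 3 of the 4 were above 0 and the median was 0.54 (all probes 0.16). MSMO1, a demethylase of the late steps, was at 7.84, 5.92, 5.39 and 6.28 under HFCD and at 6.12, 6.81 and 6.98 under HFCSD. HFCD replicate 1 was the highest of the 7 arrays, and the difference was 0.28 with it and 0.77 without it. Of the sterol sensing and uptake list 7 were tested, 3 of them above 0, with a median of -0.15 (-0.03 without HFCD replicate 1). Without that replicate 2 of the 7 passed on the lower side, against 5.35% of all probes.

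ABCA1, which exports cholesterol from cells and is a classic LXR target, was at 12.32, 11.62, 11.91 and 11.80 under HFCD and at 12.08, 11.90 and 12.03 under HFCSD. The control arrays of 19 weeks were at 9.14, 9.94, 9.94 and 9.54. Every array of both diets was thus above every control array, and the diets overlapped each other almost fully. The difference between HFCSD and HFCD was 0.09 (SE 0.25), -0.01 with the slide as a block, -0.40 at 10 weeks and -0.13 at 27 weeks. The LXR target list had a median of 0.04 over 5 genes, and 3 of them were above 0. With normexp its median was -0.01 and 2 were above 0, and without HFCD replicate 1 it was -0.18. Without that replicate 2 of the 5 passed on the lower side, against 5.35% of all probes.

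Genes of sugar and fat metabolism also lay on both sides of 0. Of the list for fructose, glucose uptake and glycolysis 9 genes were tested and 4 were above 0 (median 0.00, and 0.01 without HFCD replicate 1). SLC2A5, the fructose transporter, was at 7.85, 7.75, 7.80 and 7.93 under HFCD and at 7.79, 8.19 and 8.29 under HFCSD. HFCSD replicates 2 and 3 were above all HFCD arrays and replicate 1 lay among them (difference 0.25, SE 0.23). FBP1, an enzyme of gluconeogenesis, differed by 0.28. PFKM, the muscle form of phosphofructokinase, was at 5.08, 6.84, 6.53 and 4.46 under HFCD and at 4.36, 3.92 and 6.70 under HFCSD. It was dim and spread widely within both diets, with differences of -0.73 at 19 weeks, -1.17 at 10 weeks, -1.01 at 27 weeks and -2.14 in white blood cells. At 19 weeks it ranged from -1.58 to -0.19 when 1 array was left out, the first without HFCSD replicate 3 and the second without HFCSD replicate 2.

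The lipogenesis list had a median of 0.00 over 5 tested genes (-0.11 with the 75th percentile scaling and 0.04 without HFCD replicate 1), and FASN, the fatty acid synthase, differed by -0.37. The list of fatty acid oxidation and PPAR targets had 16 tested genes, 10 above 0, with a median of 0.10 (0.15 without HFCD replicate 1). CD36, the fatty acid uptake receptor of monocytes and platelets, was at 6.30, 7.87, 7.25 and 4.68 under HFCD and at 7.74, 6.91 and 8.40 under HFCSD. HFCD replicates 1 and 4 were the lowest of the 7 arrays, as they were for the platelet genes described further on (difference 1.16, and 0.55 without HFCD replicate 4). CD36 was above background on 3 of the 4 HFCD arrays, so it was tested through the HFCSD arrays alone, where it is high. Of the insulin and adipokine list 8 were tested and 6 were below 0 (median -0.18, and -0.35 without HFCD replicate 1). RETN, which encodes resistin, was at 8.33, 8.68, 8.17 and 8.71 under HFCD and at 9.54, 9.90 and 8.18 under HFCSD. HFCSD replicates 1 and 2 were above all HFCD arrays and replicate 3 was among the lowest of the 7 (difference 0.74, and 0.39 without HFCSD replicate 2).

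Interferon-induced genes were lower under HFCSD in most members, though none passed the test. Interferons switch on a program of antiviral genes in all leukocytes, and some of these genes are among those the study picked from these arrays. Of 20 tested members 18 were below 0, with a median of -0.34 against 0.09 over all probes. Without HFCD replicate 1, 12 of 20 were below 0 and the median was -0.08 against 0.16 over all probes. Without any array left out, the mean of the 20 genes was 11.55, 10.41, 11.03 and 10.75 on the HFCD arrays and 10.42, 11.03 and 10.38 on the HFCSD arrays. HFCD replicate 1 was the highest of the 7, and the rest of the HFCD arrays overlapped the HFCSD arrays.

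MX1, a GTPase that blocks virus replication, was at 15.61, 14.04, 14.83 and 14.50 under HFCD and at 14.18, 14.71 and 13.96 under HFCSD (difference -0.46, SE 0.40, and -0.17 without HFCD replicate 1). OASL, a relative of the enzymes that sense viral RNA, was at 10.46, 7.78, 8.53 and 7.84 under HFCD and at 6.48, 8.82 and 8.02 under HFCSD (difference -0.88, and -0.28 without HFCD replicate 1). CXCL10, a chemokine that draws T cells, was at 13.60, 9.24, 10.71 and 10.07 under HFCD and at 8.72, 11.36 and 11.07 under HFCSD. HFCD replicate 1 was the highest array for each of these 3 genes, and the difference for CXCL10 was -0.52 with it and 0.38 without it. RSAD2, the antiviral protein viperin, differed by -0.52, and by -0.04 without that replicate. LGALS9, a galectin that binds sugars on T cells, was at 13.47, 12.62, 13.59 and 13.85 under HFCD and at 13.11, 12.67 and 12.35 under HFCSD. Its lower HFCSD values did not turn on HFCD replicate 1 (difference -0.67 with it and -0.64 without it), and all 3 of its tested probes were negative.

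The same list leaned the same way at the other feeding times. Each diet had 5 pigs in all, so arrays of different feeding times share pigs and are not independent. At 10 weeks 0 of 20 members were above 0, with a median of -0.45 against -0.10 over all probes. At 27 weeks 2 of 20 were above 0, with a median of -0.50 against -0.15 over all probes, and in white blood cells of 27 weeks the median was -0.38 against 0.00. MX1 differed by -0.91 at 10 weeks, -0.95 at 27 weeks and -0.46 in white blood cells. In none of these comparisons did a probe pass adjustment in limma, with 895 of 17917 probes at an unadjusted p under 0.05 at 10 weeks, 1868 of 18005 at 27 weeks and 391 of 18799 in white blood cells.

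**Figure D3:**
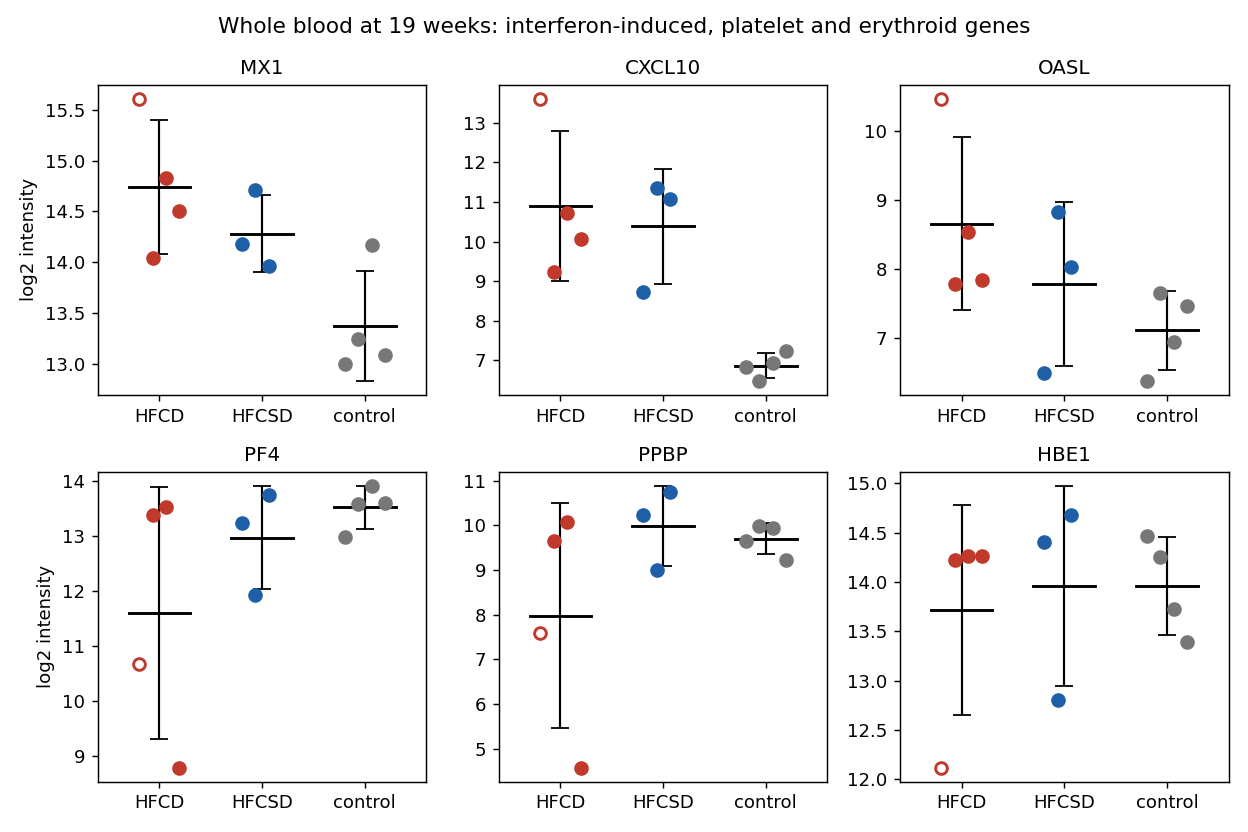
Log2 intensity of 3 interferon-induced genes (MX1, CXCL10, OASL), 2 platelet genes (PF4, PPBP) and a red cell globin (HBE1) on each whole blood array at 19 weeks, by diet. Points are arrays, the open point is HFCD replicate 1, and lines and bars are the mean and 1 SD. HFCD replicate 1 is the highest array for the interferon-induced genes and the lowest for HBE1 (12.12).

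Other genes of inflammation lay on both sides of 0. Of the inflammatory cytokine and chemokine list 21 were tested, 10 above and 11 below 0 (median -0.02). Without HFCD replicate 1, 13 of 22 were above 0 (median 0.04). PTGS2, the inducible cyclooxygenase, was at 7.92, 6.10, 6.12 and 4.83 under HFCD and at 6.43, 7.76 and 7.23 under HFCSD. HFCD replicate 1 was the highest and HFCD replicate 4 the lowest, with the HFCSD arrays between them (difference 0.89). Without HFCD replicate 1 every HFCSD array was above the HFCD arrays and the difference was 1.45. IL1A, an alarm cytokine, was at 4.46, 5.92, 5.87 and 6.24 under HFCD and at 4.84, 4.93 and 4.71 under HFCSD. The HFCSD arrays were alike and lay below 3 of the 4 HFCD arrays (difference -0.80 with 7 arrays).

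Toll-like receptors and their adaptors had 10 tested genes, 7 above 0 (median 0.16, and 0.41 without HFCD replicate 1). TRAF6, a ligase that relays their signal, was at 7.44, 5.24, 5.67 and 7.42 under HFCD and at 5.63, 5.41 and 4.18 under HFCSD. HFCD replicates 1 and 4 were high, the other HFCD arrays were near HFCSD replicates 1 and 2, and HFCSD replicate 3 was the lowest of the 7. The difference was -1.37 at 19 weeks, -1.67 at 10 weeks, -0.66 at 27 weeks and -1.14 in white blood cells. HFCD replicates 1 and 4 were also the high HFCD arrays at 10 weeks (7.84 and 7.39). At 27 weeks HFCD replicate 3 alone was high (8.82). Among the controls, replicate 1 was the high array at 19 weeks (7.83) and at 27 weeks (8.81), but not at 10 weeks (4.69). High arrays thus occurred without either diet. TLR10, a receptor found mainly on B cells, differed by 0.63. Antioxidant enzymes had 14 tested genes, 8 above 0 (median 0.14, and 0.26 without HFCD replicate 1), and PRDX6, a peroxiredoxin, was at 11.12, 12.22, 12.37 and 10.77 under HFCD and at 12.69, 11.17 and 13.16 under HFCSD. The MHC class I list had a median of -0.01 over 7 genes (-0.28 with the 75th percentile scaling and 0.01 with the deposited series table). MHC class II had a median of 0.12 over 5 (0.01 with the 75th percentile scaling). These medians were -0.22 for class I and 0.30 for class II without HFCD replicate 1.

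Genes of the protein and energy machinery were mostly slightly above 0, as were most probes. Of the respiratory chain and ATP synthase list 16 of 19 were above 0 (median 0.20, and 0.29 without HFCD replicate 1). COX7C, a subunit of cytochrome c oxidase, was at 11.46, 10.53, 10.18 and 10.31 under HFCD and at 10.95, 11.06 and 11.69 under HFCSD. HFCD replicate 1 was within the HFCSD range and the other HFCD arrays were below it (difference 0.61 with 7 arrays and 0.89 without that replicate). COX6C, of the same complex, also had HFCD replicate 1 within the HFCSD range and differed by 0.58. Cytosolic ribosomal proteins had 28 tested genes, 23 above 0 (median 0.11, and 17 above 0 with a median of 0.02 under the 75th percentile scaling). Heat shock proteins and chaperones had 10 of 12 above 0 (median 0.19), among them HSPD1, the mitochondrial chaperonin, with a difference of 0.53 (0.81 without HFCD replicate 1). Proteasome subunits had a median of 0.03 over 10 genes, and of -0.06 under the 75th percentile scaling. The medians without HFCD replicate 1 were 0.20 for the ribosomal list, 0.37 for the chaperones and 0.05 for the proteasome.

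Platelet genes were low on 2 HFCD arrays, and none of them passed the test with 7 arrays. Of the platelet list 8 genes were tested, 6 above and 2 below 0, with a median of 0.67. Without HFCD replicate 1, 4 of 9 were above 0, the median was -0.12 and 1 of 9 passed on the lower side, as did 5.35% of all probes. PF4 was at 10.68, 13.38, 13.54 and 8.80 under HFCD and at 13.23, 11.93 and 13.75 under HFCSD. PPBP, a chemokine precursor of platelet granules, was at 7.60, 9.66, 10.08 and 4.58 under HFCD and at 10.22, 9.0 and 10.75 under HFCSD. It was above background on 3 of the 4 HFCD arrays, so it was tested through the HFCSD arrays alone, where it is high. HFCD replicates 1 and 4 were the lowest of the 7 arrays for both genes. HFCSD replicate 2 was the next lowest, below the other HFCD arrays. ITGB3, the integrin chain of the fibrinogen receptor, had the same order (9.26, 11.83, 12.41 and 9.20 under HFCD). The mean of the 8 genes was 7.91, 10.66, 10.97 and 8.29 on the HFCD arrays, and 10.58, 9.26 and 10.52 on the HFCSD arrays. At 10 weeks the list had a median of 0.68 with 8 of 9 genes above 0, and at 27 weeks 0.06. Whether the platelet level has a part in any other result was not tested.

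A red cell globin split within both diets. HBE1 was at 12.12, 14.23, 14.26 and 14.26 under HFCD and at 14.41, 12.80 and 14.68 under HFCSD. HFCD replicate 1 and HFCSD replicate 2 were the low arrays. The difference was 0.25 with 7 arrays and -0.29 without HFCD replicate 1.

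No leukocyte marker passed the test with 7 arrays. T cell markers had a median of -0.01 over 7 genes, and natural killer and cytotoxic markers 0.13 over 3 (-0.03 with normexp). The neutrophil list had -0.01 over 6 (0.05 with normexp), the eosinophil and basophil list 0.31 over 3, and the pan-leukocyte list 0.01 over 5 (-0.05 with the 75th percentile scaling). With HFCD replicate 1 left out the medians were 0.06 for T cells, 0.30 for natural killer and cytotoxic cells, -0.27 for neutrophils, 0.26 for eosinophils and basophils, and 0.12 for the pan-leukocyte list. GNLY differed by -0.30, and by -0.45 without that replicate. CD40, a receptor for T cell help found on B cells, was at 11.62, 11.38, 11.20 and 11.05 under HFCD and at 11.66, 12.15 and 11.40 under HFCSD. HFCD replicate 1 lay among the HFCSD arrays and the others were just below them (difference 0.42). Monocyte and macrophage genes had a median of 0.08 over 12 (0.21 without HFCD replicate 1). LYZ was at 13.67, 12.91, 12.63 and 11.39 under HFCD and at 13.22, 14.06 and 13.63 under HFCSD. Only HFCD replicate 1 reached the HFCSD level (difference 0.99, and 1.33 without it).

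Few liver genes of the list could be tested in blood. Of 20 liver genes on the array 5 were tested and all 5 were below 0. Their median was -0.71, or -0.38 with the slide as a block. Without HFCD replicate 1 the median was -1.53 over 6, and 3 of the 6 passed on the lower side. Of all probes 5.35% did. HP, 1 of the 5, was above background on 4 HFCD but only 2 HFCSD arrays. ITIH4, tested only without HFCD replicate 1, was above background on 3 HFCD and 2 HFCSD arrays. Both were tested through the HFCD arrays alone, where they are high, so their signs are in part set by the filter. The list went the other way at 10 weeks (median 0.43, 7 of 7 above 0) and at 27 weeks (median 0.68, 6 of 7 above 0). ITIH2, a carrier of hyaluronan chains made in liver, was at 6.41, 10.82, 9.68 and 10.37 under HFCD and at 8.88, 8.67 and 8.17 under HFCSD. The HFCSD arrays were between HFCD replicate 1, which was lowest, and the other HFCD arrays. The adipose list had a median of -0.03 over 4 genes (0.02 with normexp and -0.07 without HFCD replicate 1). Skeletal muscle had a median of -0.23 over 6, and of -0.59 with 0 of 6 above 0 without HFCD replicate 1. Smooth muscle and vessel wall had 0.43 over 8, and 0.10 with 4 of 8 above 0 without HFCD replicate 1. ACTA2, the smooth muscle actin, was at 5.57, 6.42, 8.56 and 6.14 under HFCD and at 8.12, 6.09 and 9.44 under HFCSD. High and low arrays occurred under both diets.

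Without HFCD replicate 1 the same comparison gave many calls. Of 16793 probes tested with limma 961 (5.72%) passed the adjusted threshold, 63 higher (0.375%) and 898 lower (5.35%) under HFCSD, and 3622 (21.6%) had an unadjusted p under 0.05. Leaving out any other single array gave 0, with 137 to 251 probes at an unadjusted p under 0.05. Of the 898 lower probes 93 carry a gene symbol and of the 63 higher probes 4 do.

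Genes of many kinds were on the lower side, and for most of them HFCD replicate 1 was lower still. UPK2, a uroplakin of the bladder lining that the study also listed, was at 6.37, 11.67, 11.65 and 11.56 under HFCD and at 10.07, 8.31 and 8.77 under HFCSD (difference -2.58 without HFCD replicate 1, adjusted p = 0.0368, and -1.26 with it). INSIG1, which holds SREBP factors in the endoplasmic reticulum, was at 6.90, 10.18, 10.30 and 11.01 under HFCD and at 9.24, 8.34 and 8.57 under HFCSD. SREBF1, the gene of the SREBP factor that drives lipogenesis, was at 8.15, 12.29, 12.57 and 12.10 under HFCD and at 11.44, 10.43 and 10.52 under HFCSD. For all 3 genes HFCD replicates 2 to 4 were alike and high, the HFCSD arrays were lower, and HFCD replicate 1 was the lowest of the 7. INSIG1 differed by -1.78 without that replicate (adjusted p = 0.0368) and by -0.88 with it. SREBF1 differed by -1.53 without it (adjusted p = 0.0399) and by -0.48 with it, and a second, widely spread probe of SREBF1 by -2.05 (adjusted p = 0.249) and 0.01.

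The other named genes of this set do unlike things. PLTP moves phospholipids between lipoproteins (-1.66, and -0.66 with HFCD replicate 1), IGF2 is a growth factor (-1.55 and -0.72), and APOC3 is an apolipoprotein that slows the clearing of triglycerides (-1.33 and -0.71). CXCR3 is the receptor for CXCL10 (-1.50 and -0.80), PGLYRP1 binds bacterial peptidoglycan in neutrophil granules (-1.71 and -0.82), and IL1A differed by -1.18 and -0.80. PYGM, the glycogen phosphorylase of muscle (-1.58 and -0.54), ABCB4, a phospholipid exporter of bile (-2.23 and -1.26), and ITIH2 (-1.72 and -0.75) also passed. The first value of each pair is HFCSD minus HFCD replicates 2 to 4, with an adjusted p of 0.0368 to 0.0473, and with all 7 arrays none of these genes passed. A dim second probe of MSMO1 was on the higher side (1.19, adjusted p = 0.0422).

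As a set, the 898 probes had a median of 4.55, 7.81, 7.43 and 7.96 on the HFCD arrays and 6.43, 5.70 and 5.91 on the HFCSD arrays. HFCD replicate 1 was beyond the HFCSD mean, away from the other HFCD arrays, for 879 of the 898. Over all probes tested this held for 11871 of 16793. The control arrays of 19 weeks were at 7.99, 6.45, 6.32 and 6.42, and the first of them, the only control array scanned on the day of the diet arrays, was level with HFCD replicates 2 to 4. In white blood cells of 27 weeks the set lay between 3.19 and 4.63, below all but HFCD replicate 1 of the whole blood arrays of 19 weeks. Between the same diets at the other feeding times the set pointed the other way, with a median difference of 0.67 at 10 weeks (17 of 831 probes below 0) and 1.07 at 27 weeks (3 of 873 below 0). In white blood cells it pointed neither way (median 0.04, 204 of 456 below 0). Over all probes tested, 10387 of 16160 were below 0 at 10 weeks and 10386 of 16446 at 27 weeks. In white blood cells 7746 of 15509 were.

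The probes called lower had a higher median share of G and C than all probes tested, with wide overlap. Each probe has 60 bases, and the median share of G and C was 43.3% in the 898 lower probes (quartiles 38.3% and 45%), 35% in the 63 higher probes and 38.3% in all probes tested (quartiles 35% and 43.3%). Over all probes tested with 7 arrays, the 4858 with 35% or less had a median difference of 0.15 between the diets, and the 295 above 45% had -0.20. Without HFCD replicate 1 these medians were 0.33 and -0.57. HFCD replicate 1 differed from the other HFCD arrays by a median of 0.71 in the first class and of -1.65 in the second. The part of base composition, of RNA quality and of the cell makeup of the blood in these calls was not tested.

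**Figure D4:**
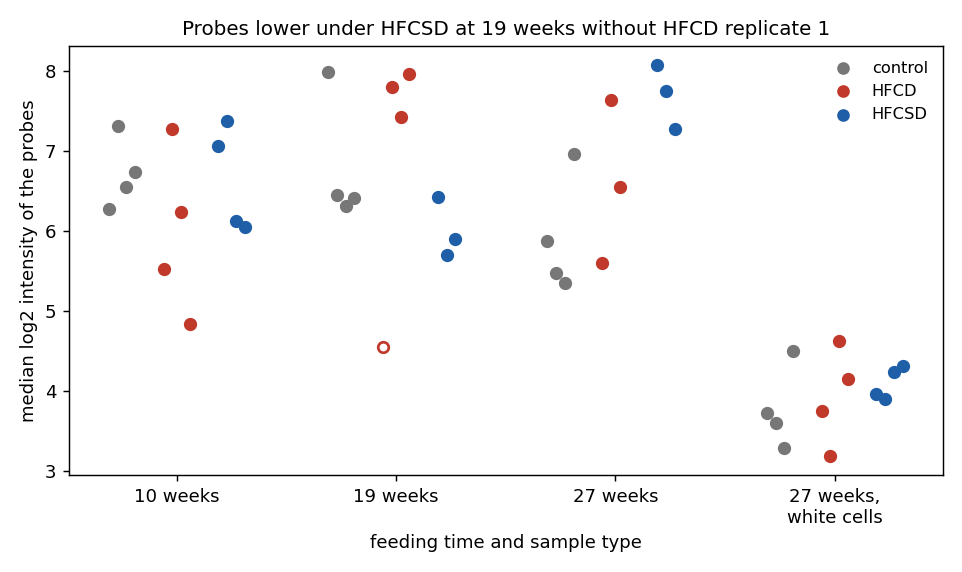
Median log2 intensity of the 898 probes that were lower under HFCSD at 19 weeks without HFCD replicate 1, on each of the 45 arrays by diet, feeding time and sample type. Points are arrays and the open point is HFCD replicate 1 at 19 weeks, which is at 4.55. At 27 weeks the HFCSD arrays of whole blood (7.28 to 8.07) are high and not low.

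Whether the diets differed in another way at 19 weeks than at the other feeding times was tested as a difference of differences. For 19 minus 10 weeks 0 of 18420 probes passed in limma (478 at an unadjusted p under 0.05), and for 19 minus 27 weeks 0 of 18285 did (1282 at an unadjusted p under 0.05). For 19 minus 27 weeks, 985 passed without HFCD replicate 1 of 19 weeks. Among the genes named above the smallest adjusted p was 0.861 for 19 minus 10 weeks and 0.573 for 19 minus 27 weeks.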

How the data were processed

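Total RNA of PAXgene whole blood was labelled with Cy3 and hybridized to Agilent porcine arrays. The authors deposited the spot intensity that Feature Extraction 10.5.1.1 wrote, background subtracted within the array, and a series table of intensity that they had quantile normalized. Of 45220 spots 1417 control spots were left out, and the other 43803 spots hold 43603 probes. Spots marked as outliers (1 to 31 per array) were left out, log2 values were quantile normalized over 45 arrays, and spots of a probe were averaged. A probe was tested if well above background on every usable array of at least 1 group. Of the genes described, F2R, UCP3, PFKM, CD36, TRAF6, PPBP and ABCB4 met this through 1 diet alone. Their differences can in part be set by that filter. Tests used limma 3.58.1 in R 4.3.3 with Benjamini-Hochberg adjustment, two-sided, and were tested on simulated data. RefSeq accessions, array gene names and descriptions named 3217 probes of 2115 genes, 36 probes by hand.

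Genes were named if their diet arrays did not overlap (the 10 largest differences each way), if they were among the 3 largest differences of a list or had an unadjusted p under 0.05 there, or if the study's tables hold them. A gene is given by its brightest probe. Of the 109 genes this rule names 50 are described, and some genes, and the 2 marker lists that rest on them, are not reported here. The pathway and marker lists, and the members, were chosen with earlier results of these data known. Alternatives were other scalings, background corrections, filters, blocks, array weights, the methods' t-test, and each array left out in turn.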

Additional observations from a re-analysis of the deposited data

Results flagged for a closer look

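Within the 4 HFCD arrays of 19 weeks, 1 array lay far from the other 3 in 10 of the 52 quantities examined, and it was replicate 1 each time. Chance alone puts about 1 in 20 groups on such a list, and genes on 1 array are not independent. The quantities include genes described here that passed the test only without this array, so the count cannot be set fairly against that share. Averaged over its HFCD partners, the correlation of this array was 0.854, the lowest of the group. It was low for SREBF1 (8.15), IGF2 (6.58), CXCR3 (7.17), APOC3 (4.23), PYGM (7.28) and UPK2 (6.37), all of which passed the test only once this array was left out. It was also low for MGP (6.22) and for HBE1 (12.12). It was high for the brightest probe of RPL22 (14.20).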

How the results depend on the processing

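The count of 0 probes for HFCSD against HFCD at 19 weeks held under 15 alternatives of scaling, background, filter, design and test, with 53 probes at an unadjusted p under 0.05 with the replicate number as a block, 2607 with array weights and 1021 with no filter on dim probes. Deviations of HFCD and HFCSD arrays of the same replicate number at 19 weeks did not go together (r of -0.60, -0.13 and -0.21). These pairs join pigs of different diets, so they cannot show whether a number marks the same pig across feeding times. The number was not used as a pair in the main tests. As a block it also gave 0 probes for 19 minus 10 and for 19 minus 27 weeks. The methods' t-test with a fold of 2 or 0.5 and no adjustment gave 36 probes, 24 higher and 12 lower. Leaving out 1 array gave 0 to 961 probes, 961 without HFCD replicate 1.

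For 19 minus 27 weeks, leaving out 1 array gave 0 to 985 probes, and array weights gave 4016. For 19 minus 10 weeks all alternatives run gave 0. The share of spots above background differed by -0.17 to 5.0 percentage points when 1 array was left out, and by 1.59 with the weaker flag.

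Of 50 genes named, 44 kept their direction in all alternatives, but 39 moved by a factor of more than 1.5 when some single array was left out, so single sizes are imprecise. SREBF1 was at 0.0449 with the share of spots above background as a covariate. ABCA1 was at -0.0141 with normexp and -0.00848 with the slide as a block, which is the same as leaving out HFCD replicate 2. HBE1 was at -0.31 with array weights. With 1 array left out MSMO1 ranged from -0.0415 to 0.77, ABCA1 from -0.00848 to 0.22, FASN from -0.69 to 0.0459, CXCL10 from -1.08 to 0.38 and HBE1 from -0.29 to 0.83. The cause was not tested. Between 35.4% and 53.3% of spots per array were well above background, so differences of dim probes are imprecise.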

Other observations

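The values here were picked after they were seen. At 10 weeks PPBP was at 8.78, 8.49, 8.40 and 8.05 under HFCD and at 9.43, 10.20, 9.47 and 9.41 under HFCSD. Every HFCSD array was above every HFCD array, and the difference was 1.2 (limma unadjusted p = 0.000678, adjusted p = 0.776). At 27 weeks PPBP was at 8.99, 9.27 and 8.62 under HFCD and at 10.12, 9.40 and 5.82 under HFCSD. HFCSD replicate 3 was far below the rest there, and the other HFCSD arrays were above every HFCD array.

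In white blood cells of 27 weeks PF4 was at 13.99, 9.17, 12.94 and 13.93 under HFCD, so 1 low array occurred in that group too.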
